A study of Mus musculus with 9 samples.

Results

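The genes described here are 8 transcripts that mark mast cells, out of 54532 genes measured in injured mouse tibialis anterior, a muscle of the lower hind limb. They are Fcer1a, Ms4a2, Cpa3, Mcpt4, Cma1, Tpsb2, Kit and Hdc, and all 8 were found in the table by gene symbol. Fcer1a and Cpa3 were chosen by their FPKM pattern over these same 9 libraries, and the others as genes known to mark mast cells, so the values of Fcer1a and Cpa3 are given as a description and carry no test. The other members were also chosen with earlier results of these data known, which limits what their tests can show. The muscle came from 3 groups with 3 libraries each. The young wild-type mice were 4 to 6 months old and the old wild-type mice 24 months old. Mice of the third group were labelled old and P311-/-, which means that both copies of the P311 gene (symbol Nrep) were deleted, and the labels give no months for them. Muscles of all 3 groups had been injured, and the labels name neither the kind of injury, nor the day of sampling, nor the number of animals behind a library. The p-values therefore measure the spread between libraries, which may be technical.

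Mast cells are resident immune cells of connective tissue that store ready-made mediators in granules. Antigen bound to IgE clusters their high-affinity receptor, which is built from an alpha chain (Fcer1a), a beta chain (Ms4a2) and a gamma chain shared with other leukocytes (Fcer1g), and the granules are then released. They depend on stem cell factor (Kitl) through the receptor tyrosine kinase Kit, and in skeletal muscle they lie in the connective tissue around fibres and vessels. The granules hold histamine, made by histidine decarboxylase (Hdc), together with heparin-bound proteases. These proteases are carboxypeptidase A3 (Cpa3), the chymases Mcpt4 and Cma1 and the tryptase Tpsb2, a set typical of mast cells in connective tissue, whereas Mcpt1 and Mcpt2 are typical of mucosal mast cells.

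Recovered reads per library ranged from 14222204 to 31910890. Nrep stood at 63.9 to 86.3 FPKM (fragments per kilobase of gene, scaled by a constant for each library) in the 6 wild-type libraries and at 6.37 to 14.8 FPKM in the P311-/- libraries. The muscle actin gene Acta1 stood at 16504 to 23424 FPKM in all 9 libraries. Library P311-/- replicate 1 stood apart from its group: its Euclidean distance over the tested genes was 86.0 and 81.9 from replicates 2 and 3, which were 66.7 from each other, against 59.6 to 69.95 from the old wild-type libraries. Ptprc, the pan-leukocyte gene, stood at 3.63 FPKM in it and at 1.36 and 1.67 FPKM in the other 2 P311-/- libraries. Values without it stand beside most tested differences of P311-/- muscle.

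The stretches upstream of the members' start sites are shown because most of the members differed in the same direction between the age groups and because GATA factors are known regulators of mast cell genes. RefSeq promoters (GRCm38.p6) matched 7 of the 8 members by symbol, and Tpsb2 had no entry. The 5 letters GATAA, the core of a GATA site, were searched on both strands in the 250 bases before each start. They occurred in 5 of the 7 matched members and in 22.6% of 32851 promoter windows of the same length. The 5 sequences follow, on the strand of the gene and from 5′ to 3′, with each GATAA or its reverse complement TTATC in capitals. The windows are chr1:173227230-173227479 for Fcer1a, chr19:11623720-11623969 for Ms4a2, chr3:20242182-20242431 for Cpa3, chr14:56062311-56062560 for Mcpt4 and chr14:55944676-55944925 for Cma1, and all 5 genes lie on the minus strand.
Fcer1a: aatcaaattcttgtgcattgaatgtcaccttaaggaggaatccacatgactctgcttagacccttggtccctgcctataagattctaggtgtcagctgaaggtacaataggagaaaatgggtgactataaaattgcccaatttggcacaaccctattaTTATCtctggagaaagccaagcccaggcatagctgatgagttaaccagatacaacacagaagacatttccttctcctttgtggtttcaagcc
Ms4a2: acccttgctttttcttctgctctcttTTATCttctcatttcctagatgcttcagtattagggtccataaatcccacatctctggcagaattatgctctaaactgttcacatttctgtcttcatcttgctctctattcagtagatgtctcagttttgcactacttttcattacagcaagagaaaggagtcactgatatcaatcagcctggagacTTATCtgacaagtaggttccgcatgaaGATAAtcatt
Cpa3: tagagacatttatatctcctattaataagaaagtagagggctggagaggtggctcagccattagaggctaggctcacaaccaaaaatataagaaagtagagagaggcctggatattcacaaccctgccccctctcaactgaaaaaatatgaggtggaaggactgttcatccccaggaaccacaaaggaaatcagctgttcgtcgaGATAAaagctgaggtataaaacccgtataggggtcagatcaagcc
Mcpt4: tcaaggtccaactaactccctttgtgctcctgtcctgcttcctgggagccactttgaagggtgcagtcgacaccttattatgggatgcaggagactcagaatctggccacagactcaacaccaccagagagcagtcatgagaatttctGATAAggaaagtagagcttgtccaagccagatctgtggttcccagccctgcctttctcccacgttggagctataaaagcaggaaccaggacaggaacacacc
Cma1: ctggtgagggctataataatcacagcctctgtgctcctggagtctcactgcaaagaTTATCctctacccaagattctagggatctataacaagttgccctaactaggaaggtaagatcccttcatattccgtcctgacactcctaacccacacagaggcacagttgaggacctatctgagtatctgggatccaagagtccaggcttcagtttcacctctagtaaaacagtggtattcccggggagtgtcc
Ms4a2 held 3 matches, of which 1 began 10 bases and another 37 bases before the start. Cpa3 held 1 match that began 45 bases before the start. The single matches of Fcer1a, Mcpt4 and Cma1 began 92, 102 and 194 bases before the start. The windows of Kit and Hdc held no match. A second motif, CATGTG on either strand, which is a form of the E-box read by MITF, occurred in the window of Fcer1a alone among the 7 and in 12.3% of all windows. It does not overlap the GATA match there. The part of these motifs in the differences between groups was not tested.

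The granule proteases were the most abundant members in every group. Together Cpa3, Mcpt4, Cma1 and Tpsb2 made up 89.5% to 97.6% of the summed FPKM of the 8 genes in each of the 9 libraries. In young wild-type muscle Cma1 and Mcpt4 stood at 15.3 ± 4.52 and 15.1 ± 4.96 FPKM (SD, n = 3) and did not differ beyond their spread. Tpsb2 followed at 8.95 ± 0.405 FPKM (SD, n = 3) and Cpa3 at 6.04 ± 1.27 FPKM (SD, n = 3). Fcer1a stood lower, at 0.954 ± 0.257 FPKM (SD, n = 3), and Kit at 0.376 ± 0.0980 FPKM (SD, n = 3). Hdc and Ms4a2 were lowest, at 0.189 ± 0.0869 and 0.187 ± 0.0765 FPKM (SD, n = 3), again within their spread. These levels rest on 128 to 1116 reads per library for the proteases, 13 to 218 for Fcer1a, 49 to 185 for Kit, 5 to 74 for Ms4a2 and 3 to 35 for Hdc. Ms4a2 and Hdc were too low for the test across genes, which needed at least 0.5 FPKM in 3 libraries, and 6 members passed this filter.

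In old wild-type muscle 6 of the 8 members were higher in every library than in any young library, namely Fcer1a, Cpa3, Mcpt4, Cma1, Tpsb2 and Kit. Of the 14233 genes tested, 19% had old wild-type values that lay wholly above the young ones and 18.1% wholly below. The log2 fold change was above 0 for 7 of the 8 members and for 50.4% of all genes. The median of the 8 members was 0.79, beside 0.0050 over all tested genes. These counts and the median hold Fcer1a and Cpa3 and are a description. Among the 6 members not picked for their pattern, 4 lay wholly higher, 5 were above 0 and the median was 0.68. Kit, among these 4, reached the 0.5 FPKM minimum of the filter only in old libraries, and Ms4a2 and Hdc did not pass the filter. These counts are therefore a description too. The share of mitochondrial RNA was also wholly higher in old than in young wild type, at 13.2% to 17.6% against 8.79% to 10.7%. In old P311-/- it was 9.47% to 14.1% and overlapped the young range. The part of this share in the differences of the members was not tested. By limma 2 of the members passed at an adjusted p under 0.05, and these were Fcer1a and Cpa3, the genes picked for their pattern, so nothing is read from that count. Of all genes 5.4% passed in either direction, 3.39% higher and 2.01% lower. None of the 4 other tested members passed, and 3 of them had an unadjusted p under 0.05, all 3 higher, as did 26.3% of all genes in either direction and 13.9% higher. In bulk tissue a difference in the number of mast cells and a difference in RNA per mast cell cannot be told apart.

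**Figure D1:**
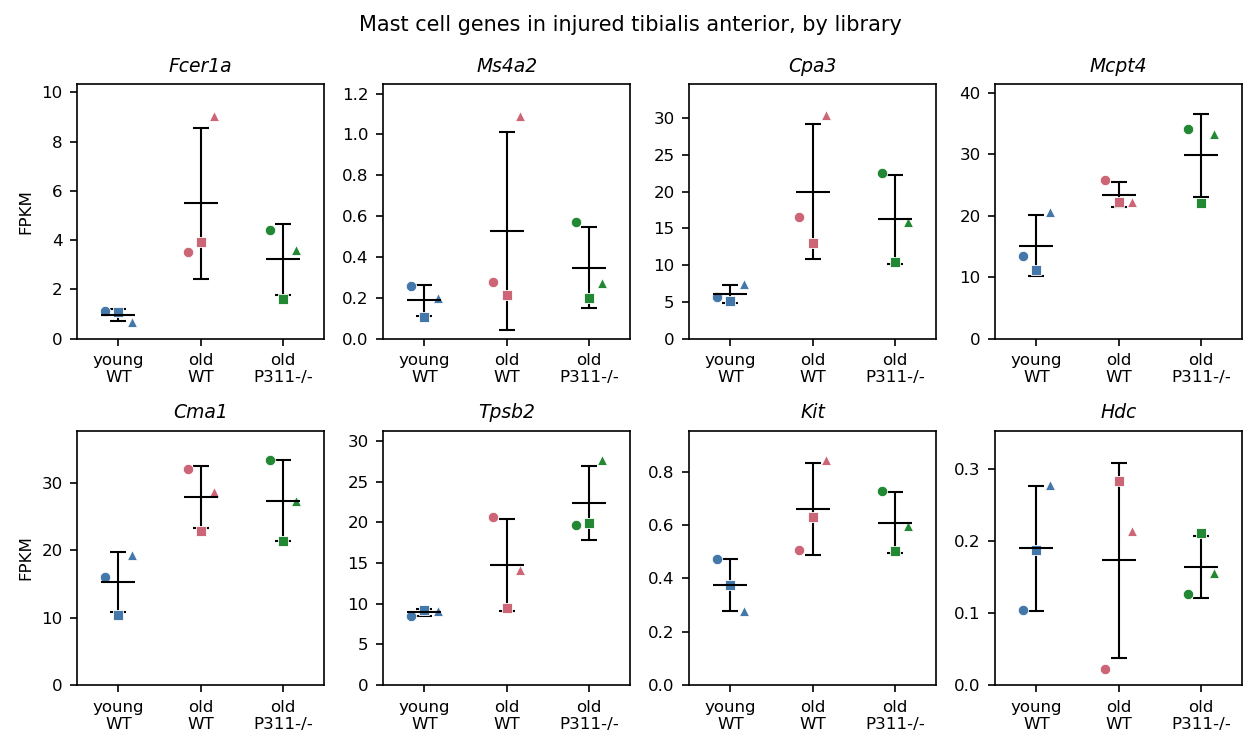
FPKM of the 8 mast cell genes in young wild-type (WT), old wild-type and old P311-/- injured muscle, 1 panel per gene with its own linear axis from 0; circles, squares and triangles are replicates 1, 2 and 3, and the black bar and whiskers give mean and SD (n = 3). Fcer1a, Cpa3, Mcpt4, Cma1, Tpsb2 and Kit lie above the young libraries in all 6 old libraries, while Ms4a2 and Hdc overlap.

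Fcer1a (ENSMUSG00000005339, chromosome 1, 173221284 to 173227214, GRCm38), the chain of the receptor that binds IgE, stood at 1.12, 1.08 and 0.659 FPKM in the young wild-type libraries. It stood at 3.51, 3.93 and 9.04 FPKM in old wild type and at 4.39, 1.63 and 3.61 FPKM in old P311-/-. Replicate 3 of old wild type was the highest of all 9, at 2.43 times the mean of the other 2 in its group, and P311-/- replicate 2 came closest to the young libraries. The mean in old wild type was 5.76 times the young mean, a log2 fold change of 2.31, and it was 1.89 without old wild-type replicate 3. Its promoter shown above held 1 match, in the form TTATC, and those of Cpa3, Mcpt4 and Cma1 also held 1 each.

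Ms4a2 (ENSMUSG00000024680, chromosome 19, 11615523 to 11623719) encodes the beta chain, which amplifies the receptor's signal. Its level was 0.258, 0.106 and 0.198 FPKM in young wild type, 0.279, 0.215 and 1.09 FPKM in old wild type and 0.573, 0.199 and 0.271 FPKM in old P311-/-. As with Fcer1a, old wild-type replicate 3 was the highest library, here on 74 reads, and the groups overlapped. Neither old group differed from young wild type beyond the spread (two-sided exact permutation p = 0.2 for each, where 3 against 3 libraries allow no p below 0.1). The log2 fold change of old against young wild type was 0.89 with all libraries and 0.30 without old wild-type replicate 3. Old P311-/- and old wild type also overlapped (exact permutation p = 0.6).

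Among the proteases, Cpa3 (ENSMUSG00000001865, chromosome 3, 20215620 to 20242181), which trims C-terminal residues from peptides, stood at 5.61, 5.05 and 7.47 FPKM in young wild type. It stood at 16.6, 13.0 and 30.4 FPKM in old wild type and at 22.5, 10.4 and 15.9 FPKM in old P311-/-. The highest library was again old wild-type replicate 3, and the lowest old library, P311-/- replicate 2, still exceeded the highest young one. The old wild-type mean was 3.31 times and the old P311-/- mean 2.69 times the young mean. Their log2 fold changes against young wild type were 1.64 and 1.36, or 1.29 without old wild-type replicate 3 and 1.09 without P311-/- replicate 1.

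Mcpt4 (ENSMUSG00000061068, chromosome 14, 56059629 to 56062313), a chymase of connective tissue mast cells, stood at 13.5, 11.1 and 20.6 FPKM in young wild type. It stood at 25.8, 22.2 and 22.3 FPKM in old wild type and at 34.2, 22.1 and 33.3 FPKM in old P311-/-. The old wild-type libraries were close together and only just above young replicate 3. Old against young wild type gave a log2 fold change of 0.68 (SE 0.24, 95% confidence interval 0.14 to 1.21, limma adjusted p = 0.112), which did not pass. Between old P311-/- and young wild type it was 1.002 (SE 0.24, limma adjusted p = 0.0900), and without P311-/- replicate 1 it was 0.89 and passed (limma adjusted p = 0.0438, over a range of 0.0438 to 0.246 across the alternatives).

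Cma1 (ENSMUSG00000022225, chromosome 14, 55941451 to 55944675), the other chymase, stood at 16.1, 10.4 and 19.4 FPKM in young wild type. Its old wild-type libraries stood at 32.1, 22.9 and 28.7 FPKM and its old P311-/- libraries at 33.4, 21.4 and 27.2 FPKM. The 2 old groups covered nearly the same range, and both lay above all young libraries. Old wild type lay above young by 0.90 on the log2 scale (SE 0.25, 95% confidence interval 0.35 to 1.45, limma adjusted p = 0.0618). It missed the threshold in that fit and passed without P311-/- replicate 1 (limma adjusted p = 0.0385), with voom on recovered reads (0.0448) and in a fit of the 6 libraries alone (0.0472), over a range of 0.0385 to 0.173 across the alternatives. Between old P311-/- and young wild type the value was 0.86 (SE 0.25, limma adjusted p = 0.120), or 0.70 without P311-/- replicate 1 (limma adjusted p = 0.0866).

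Tpsb2 (ENSMUSG00000033825, chromosome 17, 25366550 to 25368094) encodes a tryptase that is stored as a tetramer on heparin. Its level was 8.49, 9.24 and 9.13 FPKM in young wild type, 20.7, 9.43 and 14.1 FPKM in old wild type and 19.6, 19.9 and 27.7 FPKM in old P311-/-. The young libraries were nearly equal, and old wild-type replicate 2 lay barely above them. Its P311-/- mean of 22.4 FPKM exceeded its old wild-type mean of 14.7 FPKM, an order that Mcpt4 shared, although old wild-type replicate 1 lay within the P311-/- range. On the log2 scale the difference was 0.64 for old against young wild type (SE 0.25, limma adjusted p = 0.147) and 0.65 for old P311-/- against old wild type (SE 0.25, 95% confidence interval 0.09 to 1.22, limma adjusted p = 0.279). Without P311-/- replicate 1 the difference between the old groups was 0.74 (limma adjusted p = 0.119). Between old P311-/- and young wild type the difference was 1.30 (SE 0.25, limma adjusted p = 0.0581), and it passed without P311-/- replicate 1 (1.38, limma adjusted p = 0.0136), without old wild-type replicate 1 (limma adjusted p = 0.0417) and with voom (0.0450), over a range of 0.0136 to 0.203 across the alternatives.

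Kit (ENSMUSG00000005672, chromosome 5, 75574916 to 75656722), the receptor on which mast cells depend for survival, stood at 0.474, 0.376 and 0.278 FPKM in young wild type. It stood at 0.507, 0.630 and 0.845 FPKM in old wild type and at 0.728, 0.502 and 0.598 FPKM in old P311-/-. The groups did not overlap, but the lowest old libraries were close to young replicate 1. Kit reached the 0.5 FPKM minimum of the filter only in old libraries, so its p-values are no independent support. Kit had a log2 fold change of 0.67 for old against young wild type (SE 0.31, limma adjusted p = 0.200) and 0.58 between old P311-/- and young wild type (SE 0.31, limma adjusted p = 0.301), or 0.47 without P311-/- replicate 1 (limma adjusted p = 0.381). Kitl, which encodes its ligand stem cell factor, had 0.57 for old against young wild type (SE 0.19, limma adjusted p = 0.0986), at 3.65 to 5.35 FPKM in young and 5.18 to 8.03 FPKM in old wild type.

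Hdc (ENSMUSG00000027360, chromosome 2, 126593667 to 126619299), the enzyme that makes histamine, did not follow the other members. It stood at 0.103, 0.187 and 0.277 FPKM in young wild type, 0.0216, 0.283 and 0.214 FPKM in old wild type and 0.126, 0.210 and 0.155 FPKM in old P311-/-. The 3 groups overlapped fully, and the lowest value, in old wild-type replicate 1, came from 3 reads. Exact permutation p-values were 1 for old against young wild type, 0.9 for old P311-/- against old wild type and 0.7 between old P311-/- and young wild type, and no difference was detected. With 3 against 3 libraries this test allows no p below 0.1, and the part of the low read counts was not tested.

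Old P311-/- muscle was set against old wild type to compare muscle with and without P311 at old age. No member had groups that stood apart in this comparison, where 8.64% of all genes were wholly higher and 9.39% wholly lower in P311-/-. By limma none of the tested members passed, and 1 had an unadjusted p under 0.05 (Tpsb2, higher in P311-/-). Of all genes 0.0703% passed in either direction (0.0141% higher and 0.0562% lower), and 16.1% had an unadjusted p under 0.05, 7.59% of all genes being higher. The log2 fold change was above 0 for 3 of the 8 members and for 49.6% of all genes. None passed with voom either. The log2 fold change was -0.04 for Cma1 (95% confidence interval -0.59 to 0.51), -0.09 for Kit (-0.78 to 0.60) and 0.32 for Mcpt4 (-0.21 to 0.86), and without P311-/- replicate 1 these were -0.19, -0.21 and 0.21. For Fcer1a it was -0.74 with all libraries, -0.32 without old wild-type replicate 3 and -1.01 without P311-/- replicate 1. For Cpa3 it was -0.27, 0.07 and -0.54 in the same order, so the direction turned without old wild-type replicate 3. Cma1, Kit, Ms4a2 (0.29 without old wild-type replicate 3) and Hdc (-0.41 without old wild-type replicate 1) also changed sign with 1 library left out.

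Against young wild type, old P311-/- muscle had the same 6 members wholly higher as old wild type had, and this comparison shares its young libraries with that of old wild type. Of all genes 11.6% were wholly higher and 12% wholly lower. By limma 0.4% passed in either direction (0.155% higher and 0.246% lower), and 21.4% had an unadjusted p under 0.05, 10.9% of all genes being higher. The log2 fold change was above 0 for 7 of the 8 members and for 51.6% of all genes. The median of the 8 members was 0.93, beside 0.014 over all tested genes. Among the 6 members not picked for their pattern, 4 lay wholly higher, 5 were above 0 and the median was 0.72. The limits of Kit, Ms4a2 and Hdc under the filter apply here too, and these counts are a description. None of the members passed by limma, 3 of the 4 members not picked for their pattern had an unadjusted p under 0.05, and voom passed 1, Tpsb2. Without P311-/- replicate 1 there were 2 (Mcpt4 and Tpsb2), in a fit where 19.6% of all genes passed. Scaling by total counts lowered the median of all genes by 0.13 for old against young wild type and by 0.14 between old P311-/- and young wild type, and the 6 members stayed above 0 with it in both comparisons.

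**Figure D2:**
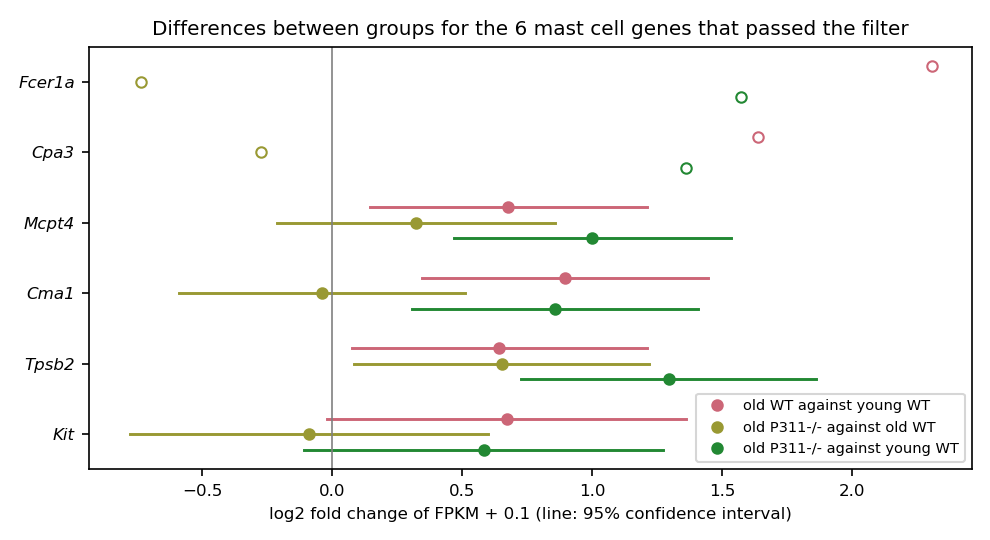
Log2 fold change of FPKM plus 0.1 for the 6 members that passed the filter, in the 3 comparisons (WT, wild type); filled points carry the 95% confidence interval of the limma fit, and open points mark Fcer1a and Cpa3, which were chosen for their pattern and are shown without an interval. Points of both old groups against young lie to the right of 0 for each gene, and those of old P311-/- against old wild type lie on both sides of it.

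Ratios between members within a library do not depend on how libraries were scaled. The ratio of the chymases, Mcpt4 over Cma1, was 0.991 ± 0.131 (SD, n = 3) in young wild type, 0.850 ± 0.102 in old wild type and 1.09 ± 0.112 in old P311-/-. Cpa3 over Cma1 ranged from 0.350 to 0.484 in young and from 0.517 to 1.06 in old wild type. Fcer1a over Cma1 ranged from 0.0340 to 0.103 in young and from 0.109 to 0.315 in old wild type. Old wild type lay wholly above young in both ratios, whose numerators are the genes picked for their pattern, so that this is a description. In old P311-/- Cpa3 over Cma1, at 0.484 to 0.674, started at the upper end of the young values, and Fcer1a over Cma1, at 0.0760 to 0.133, overlapped them. Old wild-type replicate 3 had the highest value of each. That library had 2.43, 4.42 and 2.05 times the mean of the other old wild-type libraries for Fcer1a, Ms4a2 and Cpa3, but 0.929, 1.04 and 0.934 times for Mcpt4, Cma1 and Tpsb2.

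**Figure D3:**
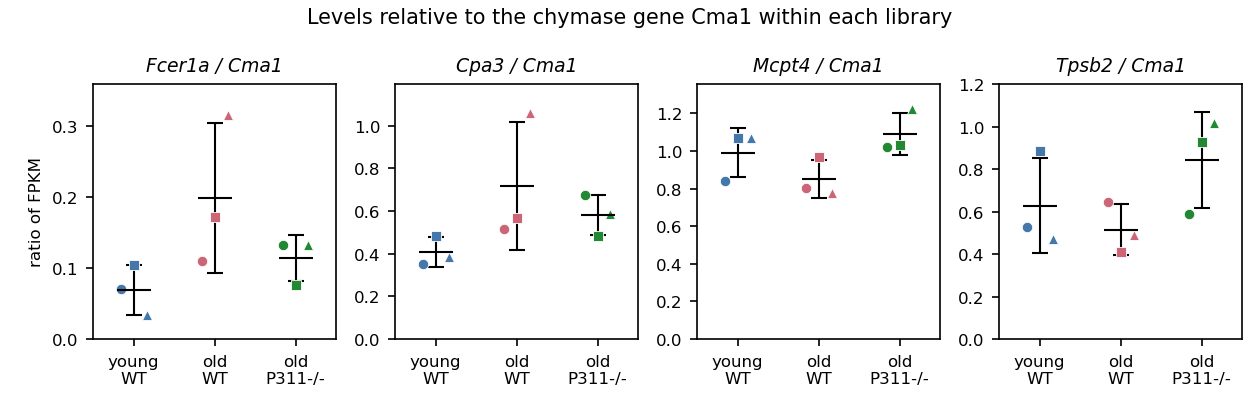
FPKM of 4 members divided by that of Cma1 in the same library, by group (WT, wild type), on linear axes from 0; circles, squares and triangles are replicates 1, 2 and 3, and bar and whiskers are mean and SD (n = 3). The ratio of Fcer1a and of Cpa3 is highest in old wild-type replicate 3, at 0.315 and 1.06, whereas Mcpt4 stays between 0.778 and 1.22 in all 9 libraries.

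Other genes of mast cells were read from lists by role. Mrgprb2 encodes the receptor through which basic peptides and drugs activate mouse connective tissue mast cells without IgE, and Mrgprb1 is a related receptor. Mrgprb1 stood at 0.505, 0.257 and 0.193 FPKM in young wild type, 0.958, 1.02 and 1.55 FPKM in old wild type and 1.32, 0.775 and 0.633 FPKM in old P311-/-. Mrgprb2 stood at 0.286, 0.288 and 0.219 FPKM in young wild type, 0.599, 0.755 and 1.14 FPKM in old wild type and 1.13, 1.21 and 0.653 FPKM in old P311-/-. Both receptors were wholly higher in each old group than in young muscle. Between old and young wild type the log2 fold change was 1.65 for Mrgprb1 (SE 0.37, limma adjusted p = 0.0400) and 1.32 for Mrgprb2 (SE 0.33, limma adjusted p = 0.0494). Mrgprb2 met the 0.5 FPKM minimum only through old libraries. Among young libraries Mrgprb1 reached it in replicate 1 alone, so it too needed old libraries to pass the filter. Both are high in old libraries, so their p-values are no independent support.

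Slc18a2, the transporter that loads histamine and other amines into granules, stood at 0.469, 0.283 and 0.359 FPKM in young wild type, 0.715, 1.17 and 1.19 FPKM in old wild type and 0.664, 0.780 and 0.905 FPKM in old P311-/-. Its log2 fold change was 1.25 between old and young wild type (SE 0.29, limma adjusted p = 0.0429). It too met the minimum only through old libraries, and the same limit applies. Hs6st2, a sulfotransferase of heparan sulfate and heparin, rose by 1.52 (SE 0.31, limma adjusted p = 0.0339), from 0.713 to 1.84 FPKM in young to 2.52 to 4.08 FPKM in old wild type. These calls were near the threshold: of 17 alternatives, Mrgprb1 passed in 7, Mrgprb2 in 3, Slc18a2 in 8 and Hs6st2 in 9, and with total-count scaling none of the 4 passed (limma adjusted p = 0.0687, 0.0800, 0.0656 and 0.0571). None passed without young replicate 1, 2 or 3 or old wild-type replicate 2 or 3, at adjusted p-values of 0.0509 to 0.158. In old P311-/- against young wild type the values of these 4 genes were 1.28, 1.56, 0.92 and 0.98, and none passed (limma adjusted p = 0.121, 0.0689, 0.135 and 0.136). Without P311-/- replicate 1 they were 1.01, 1.45, 1.02 and 0.89, and Mrgprb2 passed (limma adjusted p = 0.0287). In that fit 19.6% of all genes passed, and of the 10 surface receptors tested 1 passed as higher and 4 as lower. Those lower were Il3ra (-0.70), Siglece (-1.55), Cysltr1 (-0.68) and Cd34 (-0.71), at limma adjusted p = 0.0105, 0.0440, 0.0447 and 0.0179.

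By list, 2 of 10 tested surface receptors (of 13) passed as higher in old than in young wild type, Mrgprb1 and Mrgprb2, and none as lower, with a median of -0.05. Of 8 histamine genes 2 were tested and 1 passed as higher, Slc18a2 (median 0.90), and of 5 genes of the granule matrix 1 passed as higher and 1 as lower (median -0.26). Over all genes these shares were 3.39% and 2.01%. The one that fell was Ndst1, a sulfotransferase, by 0.62 (SE 0.11, limma adjusted p = 0.0307). Ndst1 passed in 10 of 17 alternatives but not without any one of young replicates 1 to 3 or old wild-type replicates 2 and 3 (0.0602 to 0.118). Ndst2 of the same list was wholly lower in old wild type without passing (3.20 to 3.55 against 4.07 to 4.49 FPKM, -0.33, limma adjusted p = 0.178). None passed among 12 tested genes of signalling below the IgE receptor (median -0.38), 9 transcription factors (median -0.01), 6 lipid mediator enzymes (median -0.01) and 4 cytokines (median -0.17), with 5, 2, 0 and 0 members at an unadjusted p under 0.05, beside 26.3% of all genes. Gata2, a transcription factor of mast cells and their precursors, stood at 0.441 to 0.624 FPKM in young wild type, 0.820 to 0.939 FPKM in old wild type and 0.806 to 1.91 FPKM in old P311-/-. Its log2 fold change was 0.61 for old against young wild type and 1.10 between old P311-/- and young wild type (SE 0.30, limma adjusted p = 0.116). Without P311-/- replicate 1 the latter was 1.39 and passed (SE 0.26, limma adjusted p = 0.00960). In that fit 2 of the 9 transcription factors passed as higher, Gata2 and Stat5b (0.89, limma adjusted p = 0.00740). Another 2 passed as lower, Spi1 (-1.36, limma adjusted p = 0.0118) and Ikzf1 (-0.80, limma adjusted p = 0.0492). With all 9 libraries no gene of these lists passed by limma in the comparisons with old P311-/-. Without P311-/- replicate 1, where 19.6% of all genes passed against young wild type and 13.2% against old wild type, 7 of the 12 signalling genes passed as lower than in young wild type, Syk among them (-1.02, SE 0.29, limma adjusted p = 0.0404), and none as higher. Srgn, Hpgds, Tnf and Fcer1g also passed as lower than in young wild type (limma adjusted p = 0.00943, 0.0348, 0.0373 and 0.0146). Against old wild type 2 signalling genes passed as lower, Lyn and Lcp2, and Ndst1 passed as higher (0.54, limma adjusted p = 0.0173). Srgn of the granule matrix list, Cysltr1 and Hpgds passed there as lower (limma adjusted p = 0.00817, 0.0123 and 0.0114). Stat5b passed there as higher (0.63, limma adjusted p = 0.0327).

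Fcer1g, Syk and Ptprc, 3 genes that mast cells share with macrophages and other leukocytes, did not lie above young muscle. Fcer1g, the receptor's shared gamma chain, stood at 67.9, 87.5 and 105 FPKM in young wild type, 82.8, 46.2 and 65.2 FPKM in old wild type and 70.3, 30.5 and 41.7 FPKM in old P311-/-. Syk, the kinase that docks on this chain, stood at 3.62, 3.95 and 5.29 FPKM in young and 3.14, 1.61 and 1.96 FPKM in old wild type, with a log2 fold change of -0.94 (SE 0.29, limma adjusted p = 0.0832). Of the 12 signalling genes tested 1 had a log2 fold change above 0 between old and young wild type and 0 between old P311-/- and young wild type. Ptprc stood at 2.77 to 4.06 FPKM in young and 2.97 to 3.62 FPKM in old wild type. In old P311-/- its log2 fold change was -0.70 against young and -0.66 against old wild type, and neither passed. Without P311-/- replicate 1 these were -1.11 and -1.06, and both passed (limma adjusted p = 0.00662 and 0.0123). In that fit 19.6% and 13.2% of all genes passed. Other shared genes of the lists were wholly higher in old than in young wild type without passing, among them the tetraspanin gene Cd63 (47.1 to 54.5 against 41.6 to 46.4 FPKM, limma adjusted p = 0.359), the leukotriene receptor gene Cysltr1 (1.76 to 2.304 against 1.29 to 1.68 FPKM, limma adjusted p = 0.268) and the prostaglandin D synthase gene Hpgds (2.80 to 3.61 against 2.01 to 2.79 FPKM, limma adjusted p = 0.467).

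**Figure D4:**
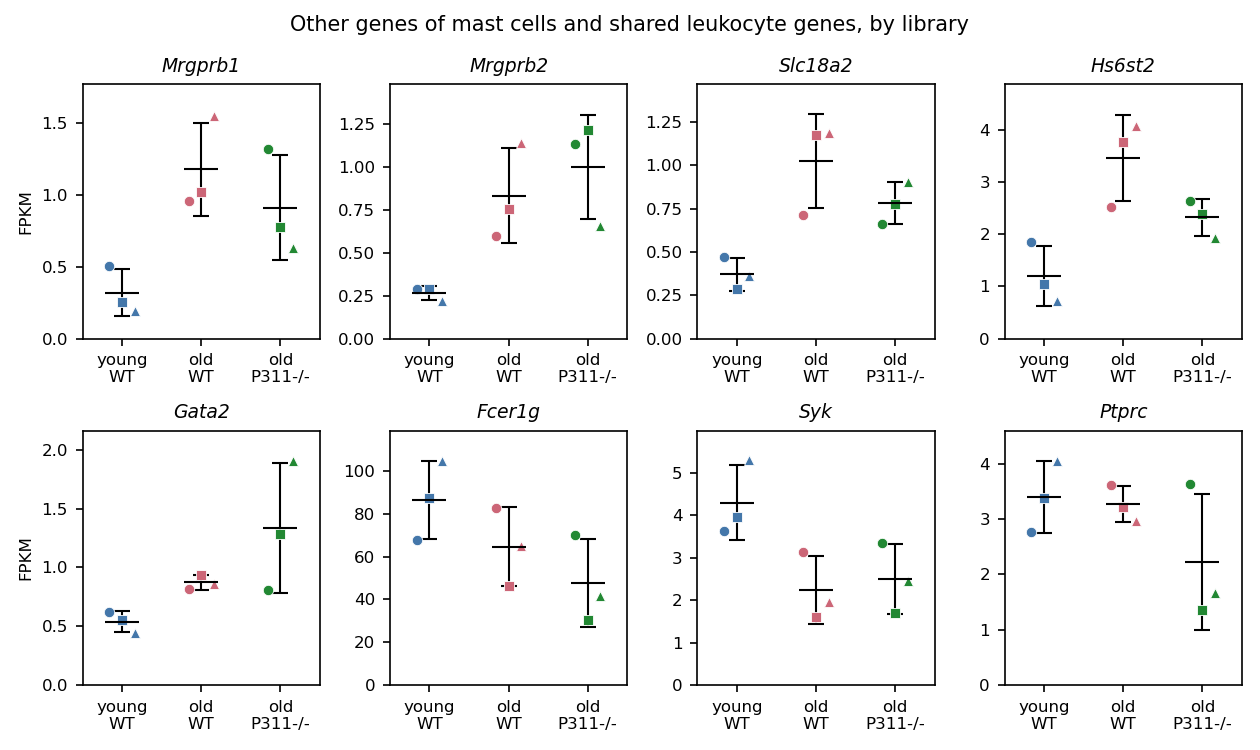
FPKM of 4 genes of the lists that passed as higher in old than in young wild type (Mrgprb1, Mrgprb2, Slc18a2, Hs6st2), of Gata2 and of 3 genes shared with other leukocytes (Fcer1g, Syk, Ptprc), by group (WT, wild type), with linear axes from 0; circles, squares and triangles are replicates 1, 2 and 3, and bar and whiskers are mean and SD (n = 3). The first 5 genes lie above the young libraries in all 6 old libraries, and the shared genes do not.

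Markers of other cells that can carry these transcripts were read beside them. Among basophil markers Mcpt8 had 5 reads in all, from 1 P311-/- library, and Prss34 stood at no more than 0.148 FPKM in young, 0.340 FPKM in old wild type and 1.04 FPKM in old P311-/-. Cd200r3 had at most 17 reads, and Il4 stood at 0.780 to 1.07 FPKM in young, 1.01, 0.443 and 1.59 FPKM in old wild type and 0.270 to 1.06 FPKM in old P311-/-. Both were highest in old wild-type replicate 3, as Fcer1a was. The summed list of 7, which also holds Fcer1a, Ms4a2 and Gata2, was 2.52 to 3.06 FPKM in young, 5.59 to 13.0 FPKM in old wild type and 3.80 to 8.12 FPKM in old P311-/-, and the part of basophils in it was not tested. The mucosal mast cell gene Mcpt1 had no read in any library, which allows at most 0.195 FPKM at 3 reads in the shallowest, and Mcpt2 reached 0.113 FPKM in 1 library. Melanocytes also express Kit. Of their 6 markers Tyr had no read in any library, while Pmel, Mlana and Sox10 reached 0.732, 0.592 and 0.618 FPKM, and the summed list was 0.470 to 0.883 FPKM in young, 0.519 to 0.738 FPKM in old wild type and 0.663 to 1.35 FPKM in old P311-/-. The part of such cells in the values of Kit was not tested. Of the 9 eosinophil markers 3 had no read in any library, among them Epx, and the summed level of the list was 2.14 to 4.79 FPKM in young, 7.65 to 8.43 FPKM in old wild type and 2.97 to 6.01 FPKM in old P311-/-. That sum was mostly Ear2, a ribonuclease gene, at 1.55 to 3.86 FPKM in young and 6.55 to 8.14 FPKM in old wild type, which rose by 1.49 (SE 0.32, limma adjusted p = 0.0368). It passed in 8 of 17 alternatives, not with total-count scaling (0.0676) and not with any one young or old wild-type library left out (0.0571 to 0.120). Between old P311-/- and old wild type Ear2 had -0.97 and did not pass (limma adjusted p = 0.260). Without P311-/- replicate 1 this was -1.22 and passed (limma adjusted p = 0.0403), in a fit where 13.2% of all genes passed.

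None of the 8 tested dendritic cell markers and none of the 10 macrophage markers passed between old and young wild type (0 and 3 at an unadjusted p under 0.05, beside 26.3% of all genes). The log2 fold change was above 0 for 4 of the 8 and 0 of the 10, beside 50.4% of all genes. The summed level of the macrophage list was 1459 to 2265 FPKM in young, 1189 to 1735 FPKM in old wild type and 673 to 1584 FPKM in old P311-/-, where the highest value was that of replicate 1. Without that replicate 7 of the 10 macrophage markers passed as lower than in young and 2 as lower than in old wild type. Of the 8 dendritic cell markers 1 passed as lower in each comparison, and no marker of either list passed as higher. In that fit 19.6% and 13.2% of all genes passed. Among fibroblast and muscle markers Col1a1 fell by 1.04 and Myh1 by 1.01 between old and young wild type (limma adjusted p = 0.0436 and 0.0362). Each was the only one of the 8 in its list to pass. The log2 fold change was above 0 for 3 of the 8 fibroblast markers (median -0.42) and 4 of the 8 muscle markers (median 0.05). The summed muscle list was 35935 to 37745 FPKM in young, 38291 to 48186 FPKM in old wild type and 38401 to 51605 FPKM in old P311-/-. The summed fibroblast list was 1517 to 1636 FPKM in young, 1051 to 1278 FPKM in old wild type and 694 to 1281 FPKM in old P311-/-. Without P311-/- replicate 1, 4 of the 8 fibroblast markers passed as lower than in young and 2 as lower than in old wild type, and none as higher. Of the 8 muscle markers 2 passed as higher than in young and 3 as higher than in old wild type, and none as lower. The part of these shifts in the values of the mast cell genes was not tested.

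Close copies can share reads with the proteases. Over windows of 50 bases, 5.48% of those of Mcpt4 transcripts in GENCODE M21 also occurred in another gene, mostly Cma2, and 5.38% of those of Cma1 in the pseudogene Gm48934. The shares were 2.098% for Ms4a2, 0.141% for Hdc and 0 for Fcer1a, Cpa3, Tpsb2 and Kit. Cma2 had at most 2 reads and Gm48934 none in any library, although both lie between Cma1 and Mcpt4 on chromosome 14. In the same interval Mcpt1, Mcpt2 and Mcpt9 had at most 2 reads, so that Cma1 and Mcpt4, at its ends, were the only protein-coding genes of the interval with over 2 reads in a library. Near Tpsb2 on chromosome 17, the related tryptase genes Tpsab1 and Tpsg1 reached 0.636 and 0.387 FPKM.

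The genes whose pattern over the 9 libraries was most like the mean of the 6 tested members, each centred and divided by its SD, were sought by Pearson correlation of log2 values. Among the highest with an established symbol were Zmat1 (r = 0.96), Zkscan3 (0.93), Mrpl57, a mitochondrial ribosomal protein (0.93), Clk1, a splicing kinase (0.92), and Ddc, the decarboxylase that makes dopamine and serotonin (0.91). Most like Fcer1a alone were Hspb3 (0.97), Thyn1 (0.96), Rps18 (0.95), Rdh14 (0.93), the chloride channel gene Ano1 (0.93) and Yipf4 (0.93), beside the members Kit (0.94) and Cpa3 (0.92) and the receptor Mrgprb1 (0.91). Fcer1a and Cpa3 were picked for their pattern over these libraries, and Kit and Mrgprb1 needed old libraries to pass the filter. The correlations of Kit, Cpa3 and Mrgprb1 with Fcer1a are therefore a description, and no support is drawn from them. Mcpt4 and Tpsb2 were less like Fcer1a (0.61 and 0.51). All these values are over 9 libraries in 3 groups and among 14233 genes, and the points share their group, depth and scaling.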

How the data were processed

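Polyadenylated RNA of 9 libraries was sequenced, 3 per group. Per the submitters' processing notes HISAT2 2.2.1, featureCounts 2.1.1 and DESeq2 1.42.0 were used and the build was mm39; options and the use of strand are not stated there. The values deposited by the authors are FPKM, per gene length and library size; the deposited gene lengths are in bases. Gene positions in the table were those of GRCm38: 53585 of 54495 identifiers shared with GENCODE M21 were identical there (98.3%), and 7 of the 8 members (Tpsb2 was not). FPKM multiplied by gene length gave whole multiples of 1 constant per library for 100% of values within a relative tolerance of 0.001, which gave recovered reads. The library size that this constant implies was 1.06 to 1.08 times the recovered reads in young wild type. It was 0.935 to 1.04 times in old wild type and 0.873 to 1.11 times in old P311-/-. The deposited values were thus not scaled to recovered reads alone.

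Groups were compared with limma 3.58.1 (R 4.3.3) on log2 of FPKM plus 0.1, with a trend and robust moderation, on genes with at least 0.5 FPKM and at least 10 recovered reads, each in at least 3 libraries. All 9 libraries entered 1 fit without a block, p-values were adjusted by Benjamini and Hochberg's method over 14233 genes, and calls had an adjusted p under 0.05. Fold changes on this scale understate the change of low genes. The method was tested on simulated data. For members under the filter, group means were compared by exact permutation of the 6 library labels, two-sided.

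The members and lists were chosen with earlier results of these data known. Named genes were the members, genes of the lists that passed, defining markers of other cells, Nrep and the 6 genes most like each pattern, of which 1 is not reported here; Kitl, Gata2, Syk, Fcer1g and Ptprc are named as values, and were singled out after their values were seen. Alternatives were other pseudocounts, filters and scaling, a fit of 6 libraries, voom, a replicate block and each library left out.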

Additional observations from a re-analysis of the deposited data

How the results depend on the processing

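For the 8 members, 132 log2 fold changes under alternatives in each of the 3 comparisons kept direction and side of the threshold, or moved by less than the spread where there was no test. Of the rest, 3 passed and 1 moved (Fcer1a, 1.64 with a pseudocount of 1) in old against young wild type, 4 passed in old P311-/- against young wild type and 4 changed sign in old P311-/- against old wild type, 2 each of Cma1 and Kit. Among values with no test, Cpa3 changed sign there in 2 alternatives, Ms4a2 in 1 and Hdc in 3, and Hdc in 2 of each other comparison. The number of members passing in old against young wild type was 2, and 0 with no filter, with total-count scaling and with the replicate block (limma, 6, 3 and 5 members at an unadjusted p under 0.05), and 0 to 3 with 1 library left out; it was 0 without any one of young replicates 1 to 3 or old wild-type replicates 2 and 3, and 1 without old wild-type replicate 1 or P311-/- replicate 3. In old P311-/- against young wild type it was 0, 1 with voom, and 0 to 2 with 1 library left out. Between the old groups, the value of Cma1 ranged from -0.19 to 0.13 with 1 library left out, turning to 0.069 without old wild-type replicate 1 and 0.13 without P311-/- replicate 2. That of Kit ranged from -0.24 to 0.080, turning to 0.080 without old wild-type replicate 3 and 0.023 without P311-/- replicate 2.

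Over all genes, 768 passed in old against young wild type (482 higher); the count was 5 with no filter, 346 with total-count scaling (96 higher), 1653 in a fit of 6 libraries, 0 with the replicate block (3386 at an unadjusted p under 0.05) and 0 to 1755 with 1 library left out, the highest without P311-/- replicate 1. In old P311-/- against old wild type 10 passed, 6 in a fit of 6 libraries, 4 with the replicate block and 4 to 1875 with 1 library left out. In old P311-/- against young wild type 57 passed, 87 with a pseudocount of 1, 23 with no filter, 34 with total-count scaling, 12 in a fit of 6 libraries, 139 with voom, 5 with the replicate block and 4 to 2785 with 1 library left out; both highest counts came without P311-/- replicate 1. The deviations of same-numbered libraries from their group means had correlations of -0.101 to 0.145 over the 3 comparisons. Those of libraries with different numbers were -0.159 to 0.214. With 3 libraries per group these values cannot show whether the numbers pair the samples, and the labels do not say. The cause of the shifts in the counts was not tested. The same alternatives for Mrgprb1, Mrgprb2, Slc18a2, Hs6st2, Ndst1 and Ear2 were added after the data were seen, as were the lists without P311-/- replicate 1. Depth limits Ms4a2 and Hdc, with at most 74 and 35 reads in a library.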
